A study of Mus musculus with 36 samples.

Results

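The livers compared here came from mice without the hepatic insulin receptor (IRLKO, or IRhep-/-), killed 4 h apart, with 6 arrays at ZT12 and 6 at ZT16. ZT is the time in hours since lights on, so ZT12 was the moment the lights went off and ZT16 lay in the dark phase, when mice feed. The 12 arrays were chosen by the genotype and time in their labels, out of 36 in all. The 36 arrays also hold IRLKO livers at ZT8 and control livers (IRhep+/+) at ZT8, ZT12 and ZT16, with 6 per group. All mice were male, on the C57BL/6J background and 11 weeks old, and ate chow freely under 12 h of light and 12 h of dark. The knockout carried a tamoxifen-inducible Cre recombinase under the transthyretin promoter, which is active in hepatocytes, and loxP sites around exon 4 of the insulin receptor gene. The labels used here give neither the time between tamoxifen and killing nor whether the controls carried Cre. Each array was hybridised with Cy3-labelled liver RNA. The labels number the arrays of a group as replicates without saying that each came from a separate mouse, so p-values measure the spread between these samples, called livers below.

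Insulin reaches the liver after a meal. Its receptor is a tyrosine kinase on the hepatocyte surface that drives glycogen and lipid synthesis and holds back glucose output. The liver also holds a circadian clock, a transcriptional loop. BMAL1 (gene Arntl) and CLOCK bind E-box sequences and switch on Per, Cry, Nr1d1, Nr1d2 and the PAR bZIP factors Dbp, Tef and Hlf. PER and CRY proteins repress BMAL1 and CLOCK, NR1D1 and NR1D2 repress Arntl, and PAR bZIP factors bind D-boxes. Feeding, temperature and glucocorticoid also set the phase of liver transcripts. The question addressed is which transcripts changed over the first hours of the dark phase in liver without the receptor, and whether the same step of time differed in control liver.

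The targeted gene checked the labels. Insr levels, given as log2 signal relative to the array's 75th percentile, were -3.95, -3.44 and -3.29 (lowest, median, highest) in knockouts at ZT12 and -3.75, -3.17 and -3.08 at ZT16. The control livers stood at -1.86, -1.58 and -1.44 at ZT12 and at -1.85, -1.70 and -1.24 at ZT16. Every knockout array lay below every control array. Within knockouts the Insr difference between times was 0.24 ± 0.13 (SE; adjusted p = 0.283). Whether the Insr probe lies in the deleted part was not determined. Across the 12 arrays the 75th percentile of signal was 369 to 525 intensity units, 55.8% to 63.1% of spots were well above background, and none was saturated. Each array correlated with the others of its group at a mean r of 0.984 to 0.990. All 13 hepatocyte markers were above background on all 12 arrays, with a summed linear signal of 6395 to 8085 at ZT12 and 7346 to 8122 at ZT16 (in units of each array's 75th percentile; exact permutation test, two-sided, p = 0.515). The summed signals of the 11 other marker lists also overlapped between the times, with exact permutation p from 0.0823 for neutrophils to 0.74. The pancreatic markers Prss2, Try5, Cpa1, Cela3b, Pnlip and Amy2b were not well above background on any of the 12 arrays. In whole liver, fewer cells of a type and less RNA per cell cannot be told apart. Principal components were taken after wash batch effects had been removed with the difference between times kept, so the time labels entered the adjustment. On the first component, with 25.6% of the adjusted variance over the 12 arrays, the ZT12 livers lay between -33.9 and -15.7. The ZT16 livers lay between 14.6 and 35.4.

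Between ZT12 and ZT16, 2879 of 22883 genes changed in knockout liver (12.6%), at an adjusted p under 0.05. Of these, 1615 were higher at ZT16 (7.06% of genes tested) and 1264 lower (5.52%), and 387 changed 2-fold or more (1.69%), 243 up (1.06%) and 144 down (0.629%). The median difference over all genes was 0.02 on the log2 scale. For 1225 genes (5.35%) the 6 livers of one time all lay above the 6 of the other. The same step of time in control liver called 830 genes (3.63%), 380 higher (1.66%) and 450 lower (1.97%), and the groups of 708 genes did not overlap (3.09%). The 2 comparisons share no array. The difference between the genotypes, tested itself, was called for 450 genes (1.97%), of which 252 had the more positive change in knockouts (1.1%) and 198 the more negative (0.865%). Of these 450, 348 were called in knockouts alone, 68 in controls alone, 12 in both and 22 in neither. In all, 339 genes were called in both genotypes, which is 11.8% of the knockout calls and 40.8% of the control calls, and 329 of them changed in the same direction. The smallest p that an exact permutation test of 6 against 6 can give is 0.00216, and each gene below whose groups are said not to overlap has that value.

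The arrays had been washed in 3 batches, each holding all 6 groups. Among the genes called in knockouts, 100%, 99.9% and 97.6% kept their direction within wash batches 1, 2 and 3. The calls were made on these same arrays, so such agreement was largely fixed by the choice and is no separate check. One set of probes moved as a block. Its members were found after the values were seen, by an unbroken run of at least 12 bases of alternating T and G, or of C and A, in the probe:
TG run: TGTGTGTGTGTG
CA run: CACACACACACA
Of the 106 genes read by a TG-run probe, 102 were called lower at ZT16 in knockouts and none higher, with a median of -0.913, while none was called in controls (median -0.088). In knockouts at ZT12 the median level of these probes was 7.0, 7.51 and 7.69 (lowest, median, highest array), against 6.21, 6.5 and 6.82 at ZT16, and control arrays lay at 5.79 to 6.68 and 5.99 to 6.53. Of the 46 genes read by a CA-run probe, 37 were called higher (median 0.815, against 0.184 in controls). The median TG-run difference was -0.863, -1.07 and -0.911 in the 3 wash batches. These probes made up 139 of the knockout calls (4.83%) and 90 of the calls for the difference between genotypes (20%). Whether they read their named transcripts was not tested, so their genes are marked where they come up. Without them, 2699 genes were called in knockouts, 829 in controls and 291 for the difference. No gene among the 24 largest changes below is read by such a probe.

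Promoters are shown for 4 clock genes whose transcripts fell, because the sites through which the clock acts can be read in them. Each is the 250 bases before the RefSeq start (GRCm38.p6), 5′ to 3′ on the gene's strand, with capitals marking an E-box (CACGTG) or, for Per3, D-boxes (TTANGTAA), searched on both strands. The spans are chr11:69098699-69098948 (+) for Per1, chr3:95882229-95882478 (−) for Ciart, chr15:81802423-81802672 (+) for Tef and chr4:151044666-151044915 (−) for Per3:
Per1: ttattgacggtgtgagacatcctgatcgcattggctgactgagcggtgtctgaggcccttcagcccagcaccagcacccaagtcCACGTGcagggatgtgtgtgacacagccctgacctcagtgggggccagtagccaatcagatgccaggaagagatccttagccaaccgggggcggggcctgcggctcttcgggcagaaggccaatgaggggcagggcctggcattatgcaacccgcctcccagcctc
Ciart: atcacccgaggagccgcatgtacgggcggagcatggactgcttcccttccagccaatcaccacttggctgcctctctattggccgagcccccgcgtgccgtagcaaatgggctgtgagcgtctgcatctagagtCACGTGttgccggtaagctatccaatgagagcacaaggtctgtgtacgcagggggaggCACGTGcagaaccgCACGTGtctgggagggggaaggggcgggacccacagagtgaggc
Tef: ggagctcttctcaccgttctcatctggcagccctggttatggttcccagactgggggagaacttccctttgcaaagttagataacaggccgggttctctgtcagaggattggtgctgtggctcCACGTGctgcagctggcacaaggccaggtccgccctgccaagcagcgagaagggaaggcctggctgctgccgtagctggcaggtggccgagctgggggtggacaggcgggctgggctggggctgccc
Per3: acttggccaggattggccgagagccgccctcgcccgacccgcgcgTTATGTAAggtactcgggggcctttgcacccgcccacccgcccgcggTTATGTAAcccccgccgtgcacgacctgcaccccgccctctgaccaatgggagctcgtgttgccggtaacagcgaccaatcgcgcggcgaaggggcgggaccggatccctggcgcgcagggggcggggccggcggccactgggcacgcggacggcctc
Per1 and Tef hold 1 E-box each, Ciart holds 3, and Per3 holds 2 D-boxes. Of 32851 RefSeq promoters of this length, 6.02% hold the E-box and 2.06% the D-box. Of the 19 clock genes tested, 16 had a promoter entry, and 5 of these held an E-box (Bhlhe41, Ciart, Cry1, Per1 and Tef) and 1 a D-box (Per3). Among the 120 genes called 2-fold or more higher that had an entry, 10.8% held an E-box, against 14.9% of 87 called 2-fold or more lower and 8.95% of all 13247 tested genes with an entry. A match is a description of the letters and does not show binding.

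The clock's arms moved in opposite directions. Of the 5 tested genes of the positive limb and its activators, 3 rose and none fell (median 0.57), against a background of 12.6% called in either direction. Arntl, the gene of BMAL1, stood at -1.22, -0.64 and -0.31 at ZT12 and at 0.40, 0.60 and 0.91 at ZT16. The groups did not overlap, and the rise was 1.28 ± 0.33 (2.44-fold; adjusted p = 0.00794). Controls rose by 1.29 (adjusted p = 0.0238), and the difference between genotypes had a 95% interval of -0.95 to 0.94. Clock, the partner of BMAL1, rose by 0.57 ± 0.08 in knockouts and by 0.55 in controls, without overlap in either. Arntl2, a paralogue of Arntl, rose by 0.59 ± 0.16 with overlapping groups. Rora, a nuclear receptor that drives Arntl, did not pass the test (-0.11, adjusted p = 0.481).

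In the negative limb, 6 of 10 genes fell and none rose (median -0.78), which is 60% against 12.6% of all genes. In controls 3 of 10 fell, against 3.63% of all genes called, and the difference between genotypes was called for 5, against 1.97%. For 2 of these 5, Ciart and Per3, the call for the difference was lost with normexp background and with the authors' deposited values. For Cry2 it was lost with the probes of a gene averaged. Per1 is the period gene that also answers directly to glucocorticoid and cAMP. It stood at 3.07, 3.63 and 4.28 in knockouts at ZT12 and at 1.24, 1.73 and 2.85 at ZT16, without overlap. The change was -1.85 ± 0.21 (3.6-fold; adjusted p = 6.49e-07). In controls Per1 lay at 3.28, 3.64 and 4.13 and then at 3.49, 3.75 and 3.92, a difference of -0.02. The genotypes thus had nearly the same Per1 level at ZT12 and separate levels at ZT16, and the difference of -1.83 ± 0.29 was called (adjusted p = 0.00155). Within the wash batches the knockout change was -1.96, -2.20 and -0.86.

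Per2 and Per3, the other period genes, and Cry2, a cryptochrome, also fell in knockouts, each with a called difference. Per3 went from -1.43, -0.94 and -0.70 to -3.39, -2.84 and -2.58, a change of -1.89 ± 0.16 against -0.77 in controls (difference -1.12 ± 0.23, adjusted p = 0.00744). The Per3 difference was -0.59 with normexp background and -1.77 with the authors' deposited values, neither called. Per2 went from 1.90, 2.14 and 2.51 to 0.73, 1.09 and 1.75, a change of -1.02 ± 0.16, while controls differed by 0.34 (adjusted p = 0.269; difference between genotypes -1.36 ± 0.22, adjusted p = 0.00155). With the probes of a gene averaged, the Per2 change was -0.67 and its difference -0.90, both still called. The period genes' ZT12 and ZT16 groups did not overlap in knockouts. Cry2 fell by 0.54 ± 0.10, with a control value of 0.09, and the difference of -0.64 ± 0.15 was called. The Cry2 fall and its difference both lost their calls when the probes of a gene were averaged. Cry1 (-0.11) did not pass the test.

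Ciart, which encodes the clock repressor CHRONO, was above background on all 6 knockout arrays at ZT12 and on none at ZT16. It was the only gene with a symbol called with that pattern. Its measured means were -3.79 ± 0.42 (SD, n = 6) and -6.58 ± 0.60. Against the lowest signal above background it was at least 2.4-fold lower at ZT16. In controls Ciart stayed above background on all arrays, with medians of -0.70 and -1.21. With another background correction (normexp) the Ciart value was -0.49 and the call was lost, as was the call for the difference, there and with the authors' deposited values.

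Nr1d2, the REV-ERBβ gene, went from 1.82, 2.17 and 2.32 to -0.30, 0.32 and 0.43, without overlap. Its change was -1.92 ± 0.17 in knockouts and -1.11 in controls (difference adjusted p = 0.0803). Nr1d1, the REV-ERBα gene, was already low at ZT12 and overlapped between times in knockouts (-0.42, adjusted p = 0.333), while it fell by 1.47 on the log2 scale in controls, a difference between genotypes that was not called (adjusted p = 0.133). Bhlhe40, a repressor of E-box transcription, differed by -0.33 (adjusted p = 0.0836), and its paralogue Bhlhe41 was not above background on any of the 12 arrays.

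Of the PAR bZIP factors and Nfil3, their antagonist, 2 of 4 fell, where 5.52% of all genes did. Dbp, the D-box activator, went from 2.83, 3.36 and 3.79 to 0.21, 0.60 and 0.87, the second largest fall (-2.76 ± 0.24; 6.79-fold; adjusted p = 1.75e-08). Controls fell by 2.16 on the log2 scale, and the genotypes' changes were not called different (95% interval -1.29 to 0.09). Tef went from 5.75, 5.94 and 6.17 to 4.33, 4.79 and 5.08, a change of -1.20 ± 0.12, against -0.29 in controls, and here the difference was called (-0.91 ± 0.17, adjusted p = 0.00533). Hlf (-0.24) and Nfil3 (0.45) did not pass the test. At ZT8 the median Dbp level was 6.59 in both genotypes, and the median Arntl level was -5.04 in knockouts and -3.84 in controls.

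**Figure D1:**
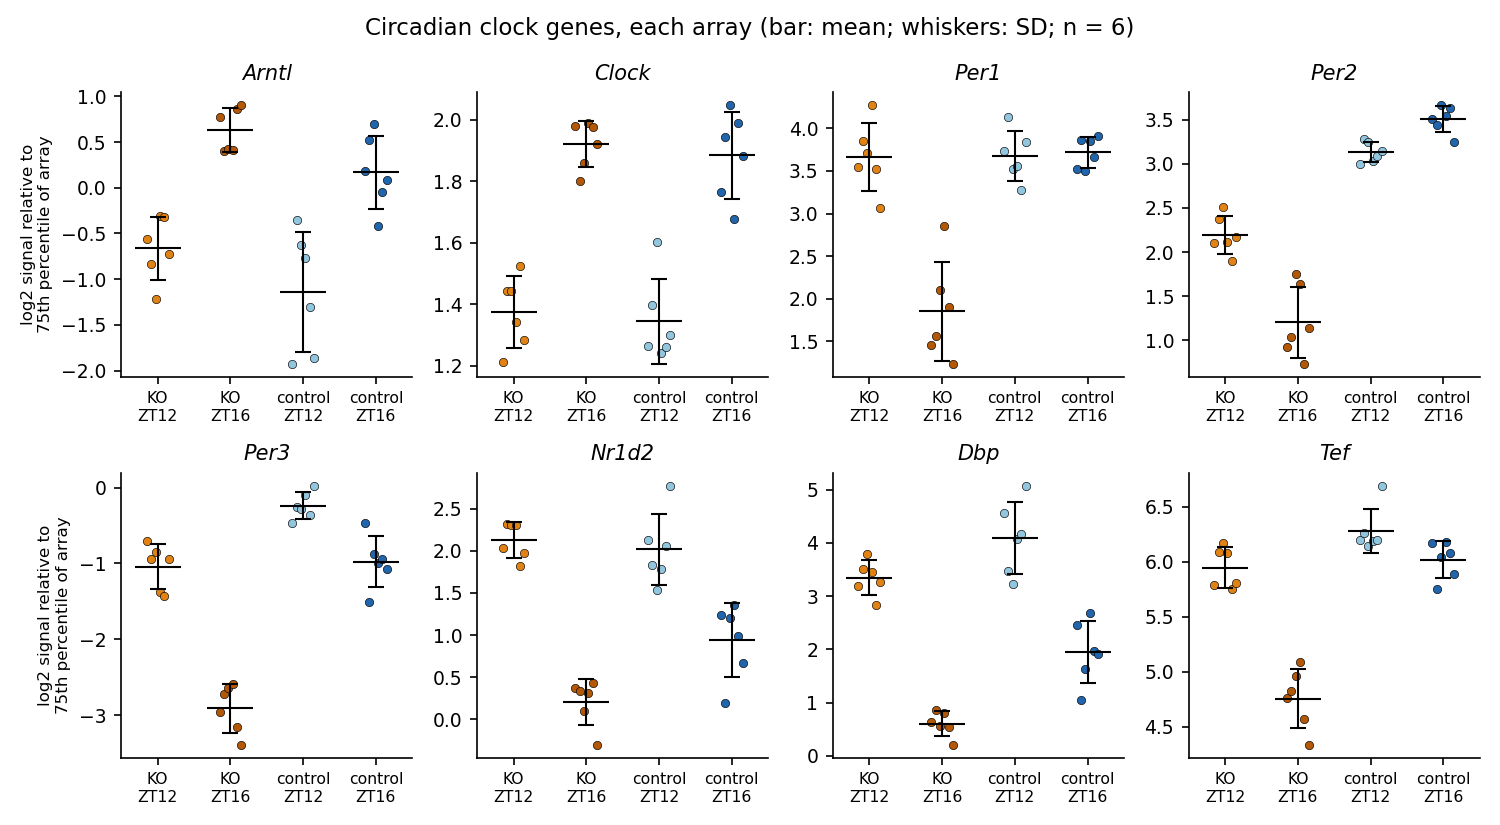
Levels of clock genes in each knockout and control liver at ZT12 and ZT16, as log2 signal relative to the array's 75th percentile; each point is a liver, bars are group means and whiskers SD (n = 6). Per1 is near 3.6 in both genotypes at ZT12 and only the knockout group is lower at ZT16, while Arntl rises in both.

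The plot of clock genes by liver shows 3 kinds of pattern. Arntl, Clock, Nr1d2 and Dbp changed in both genotypes with no called difference. Per1, Per2 and Tef fell in knockouts and had no called change in controls, with a called difference. Per3 fell in both, with a called difference that was lost with normexp background and with the authors' deposited values.

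The largest changes over all genes were taken by a rule: genes with a symbol that were called, lay above background on each of the 12 arrays and had separate groups at the 2 times. G0s2, an inhibitor of the triglyceride lipase ATGL, had the largest rise. Its probe lies at chr1:195098925-195098984 (mm9). G0s2 stood at -2.21, -1.22 and -0.47 at ZT12 and at 0.29, 1.02 and 1.82 at ZT16, a rise of 2.30 ± 0.48 (4.94-fold; adjusted p = 0.00142). Control livers were higher throughout, with medians of 2.82 and 3.68, and their difference of 0.84 did not pass the test.

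Next were Ptk6, a cytoplasmic tyrosine kinase (2.16 ± 0.31), Atp2b2, a plasma membrane calcium pump (2.09 ± 0.41), and Ppp1r3c, a glycogen-targeting subunit of protein phosphatase 1 (2.05 ± 0.32). Ptk6 went from -3.90, -2.92 and -2.59 to -2.05, -0.74 and 0.06, and its rise was 1.36 with normexp background. Tjp3, a tight junction scaffold, went from 0.40, 0.78 and 1.54 to 2.39, 2.74 and 3.13, a rise of 1.89 ± 0.19 (3.71-fold; adjusted p = 1.48e-07), and rose by 0.87 in controls (difference 1.02 ± 0.27, adjusted p = 0.039). Sdf2l1, an endoplasmic reticulum chaperone, rose by 1.71 ± 0.26, with 1.80, 2.25 and 0.43 in the 3 wash batches.

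Leap2, a liver peptide that blocks the ghrelin receptor, went from -0.21, 0.38 and 0.85 to 1.40, 1.95 and 2.38. The rise was 1.56 ± 0.17 (2.94-fold), against 0.45 in controls, and the difference of 1.11 ± 0.25 was called (adjusted p = 0.0134). Control levels of Leap2 were far higher at both times, with medians of 5.04 and 5.60. Serpinb1a, an inhibitor of neutrophil proteases, rose by 1.57 ± 0.28 from a median of -0.33 to 1.22, above the control medians of -2.18 and -2.15. The other large rises were 3930402G23Rik (1.65), D930048N14Rik (1.54), the predicted gene Gm32894 (1.5) and Spon2, a secreted matrix protein (1.44). For Gm32894 the control value was -0.73 and the difference between genotypes 2.24 ± 0.36 (adjusted p = 0.00155).

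Ppp1r3g, another glycogen-targeting subunit, had the largest fall (probe at chr13:36061999-36062058, mm9). It stood at 3.55, 4.33 and 5.54 at ZT12 and at 0.71, 1.63 and 2.19 at ZT16, a change of -2.97 ± 0.43 (7.83-fold; adjusted p = 1.61e-05). Control livers were lower by far, at -4.07, -2.68 and -1.48 and then at -6.73, -4.92 and -4.45, where 2 of the 6 arrays were above background, so their fall is not sized here. The lowest knockout liver at either time was above every control liver.

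Beside the clock genes, the largest falls included Maff, a small Maf transcription factor, which went from -0.16, 0.47 and 1.17 to -1.94, -1.75 and -1.14 (-2.06 ± 0.27). Coq10b, a coenzyme Q-binding protein of mitochondria, went from 2.56, 2.95 and 3.46 to 1.01, 1.32 and 1.60. Its change of -1.71 ± 0.17 differed from the control value of -0.40 (difference -1.32 ± 0.25, adjusted p = 0.00526). Wee1, the mitotic inhibitor kinase and a clock-controlled gene of liver, went from -1.43, -1.20 and -1.03 to -3.48, -2.80 and -2.43, a change of -1.62 ± 0.18 against -0.39 (difference adjusted p = 0.00912). With normexp background the Wee1 change was -1.03, and the call for its difference was lost when probes were averaged. Slc38a2, an amino acid transporter, fell by 1.46 ± 0.20 against -0.36 in controls (difference adjusted p = 0.0392). With its probes averaged the Slc38a2 change was -0.81 and the difference was not called. Chac1, which degrades glutathione, fell by 1.63 in knockouts and fell by 1.49 in controls. Upp2, a uridine phosphorylase, fell by 1.48 and Caln1, a calcium-binding protein, fell by 1.41.

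**Figure D2:**
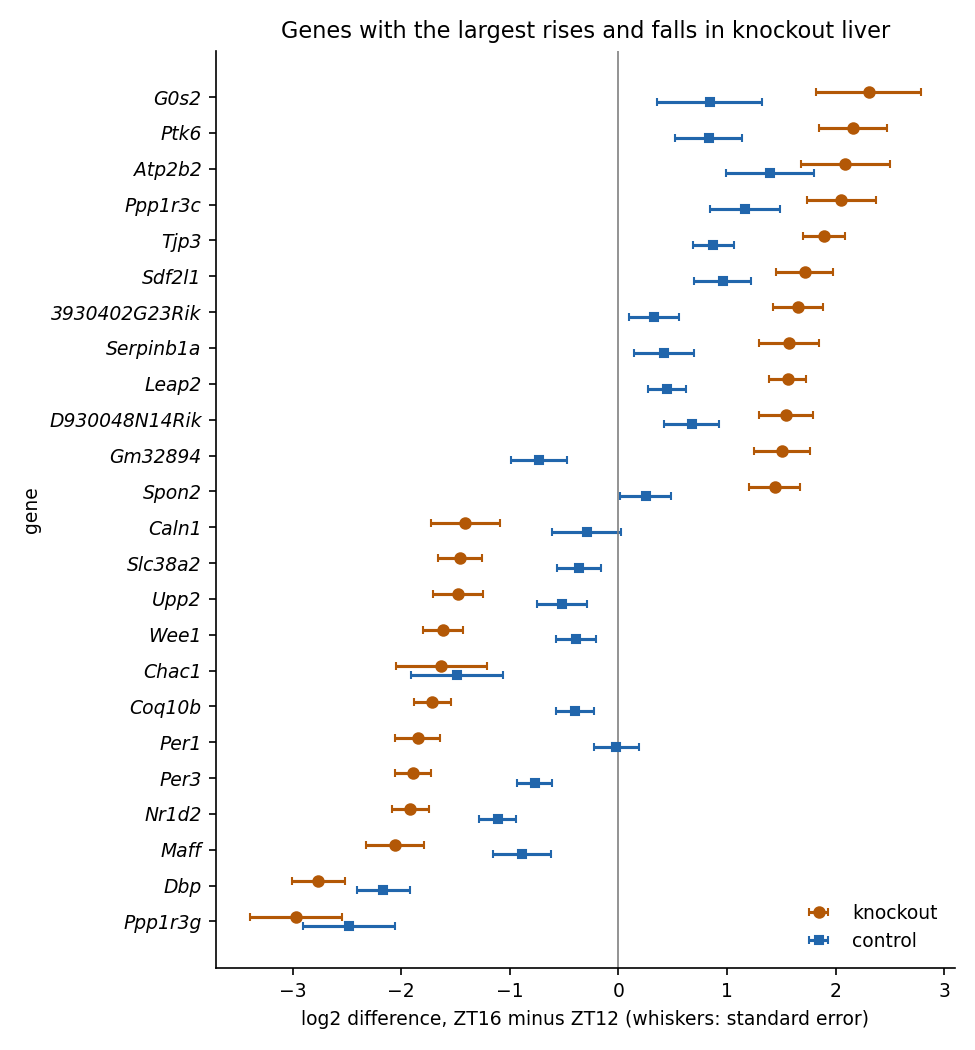
Log2 difference ZT16 minus ZT12 (x axis) of the 12 largest rises and 12 largest falls in knockout liver, one row per gene, with the knockout value as a circle, the control value as a square and standard errors as whiskers. In all 24 rows the knockout value lies farther from 0 than the control value, and the choice was made on the knockout value; Per1 is at -1.85 in knockouts and -0.02 in controls, and the Ppp1r3g control value includes 4 ZT16 arrays not above background.

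Endoplasmic reticulum (ER) chaperones and the enzymes of the unfolded protein response fold, quality-check and degrade secreted proteins, of which the liver makes many. Of 23 tested, 13 rose and 1 fell in knockouts (median 0.50), where 12.6% of all genes changed in either direction. In controls 3 rose (median 0.25), where 3.63% of all genes were called. For none was the difference between genotypes called, against 1.97% of all genes. Hspa5, the chaperone BiP, went from 6.70, 6.91 and 7.29 to 7.25, 7.51 and 7.82, a rise of 0.58 ± 0.14 (1.5-fold; adjusted p = 0.00525) with a small overlap. Calr, the lectin chaperone calreticulin, went from 3.80, 4.16 and 4.51 to 4.62, 4.83 and 5.10 without overlap (0.68 ± 0.11).

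Hyou1, a nucleotide exchange factor for BiP, rose by 0.93 ± 0.16 without overlap, and Creld2, a secreted ER stress protein, by 1.22 ± 0.27. Derl3, a channel component of ER-associated degradation, went from -3.11, -2.34 and 0.51 to -0.69, 0.53 and 1.1, with a rise of 2.26 ± 0.54 and a wide spread at ZT12. Pdia3, Pdia4 and Pdia6, disulfide isomerases, rose by 0.40, 0.57 and 0.50, Hsp90b1 by 0.44, and Sel1l and Syvn1, partners in a ubiquitin ligase, by 0.50 and 0.56. Dnajb11, a BiP cochaperone, rose by 0.71, but its 3 probes read 0.712, 0.653 and -1.21, and their mean was 0.05. Herpud1, another factor of ER-associated degradation, fell by 0.63 ± 0.21 (adjusted p = 0.0482). Xbp1, the transcription factor, differed by -0.34 (adjusted p = 0.0899).

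The list's median was 0.56 and 0.62 in wash batches 1 and 2 and 0.04 in batch 3, which held 1 knockout array at ZT12, replicate 6. Pdia4 was 2.69 in that liver and at most 2.21 in the 5 others of its group. Leaving out any single knockout array at either time kept 13 or 14 members higher.

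The ER stress element (ERSE) is the promoter sequence through which ATF6 and XBP1 act on many of these genes. Promoters of 4 of the genes that rose are shown, again the 250 bases before the RefSeq start (GRCm38.p6), with capitals marking the CCAAT and CCACG parts of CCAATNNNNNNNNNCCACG or of its reverse complement. They lie at chr2:34771840-34772089 (+) for Hspa5, chr10:75893148-75893397 (+) for Derl3, chr15:88819396-88819645 (+) for Creld2 and chr8:84846932-84847181 (−) for Calr:
Hspa5: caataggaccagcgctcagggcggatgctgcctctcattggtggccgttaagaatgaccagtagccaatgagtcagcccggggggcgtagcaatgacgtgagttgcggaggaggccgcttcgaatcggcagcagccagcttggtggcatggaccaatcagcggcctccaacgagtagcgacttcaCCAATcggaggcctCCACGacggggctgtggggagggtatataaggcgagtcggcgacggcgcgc
Derl3: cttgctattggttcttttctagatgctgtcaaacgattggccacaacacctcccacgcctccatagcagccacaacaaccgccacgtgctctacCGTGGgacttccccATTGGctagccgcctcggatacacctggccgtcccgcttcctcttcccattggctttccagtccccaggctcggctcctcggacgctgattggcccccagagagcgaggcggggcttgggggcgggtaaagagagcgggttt
Creld2: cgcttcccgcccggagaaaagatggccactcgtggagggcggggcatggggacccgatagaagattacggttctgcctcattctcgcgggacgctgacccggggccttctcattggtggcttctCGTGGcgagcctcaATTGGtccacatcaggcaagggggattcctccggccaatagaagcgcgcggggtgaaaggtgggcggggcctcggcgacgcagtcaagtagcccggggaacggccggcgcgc
Calr: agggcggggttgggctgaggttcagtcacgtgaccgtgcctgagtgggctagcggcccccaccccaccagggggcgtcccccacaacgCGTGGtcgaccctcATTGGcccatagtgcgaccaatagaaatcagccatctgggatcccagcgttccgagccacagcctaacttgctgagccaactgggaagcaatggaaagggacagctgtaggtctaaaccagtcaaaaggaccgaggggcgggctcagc
The element is found in 0.113% of the 32851 promoters. Of the 21 list members with a promoter entry, 10 held it (Calr, Canx, Creld2, Derl3, Dnajc3, Ero1b, Hsp90b1, Hspa5, Pdia6 and Syvn1), and 7 of those 10 rose (median 0.53). Of the 11 without it, 5 rose and 1 fell (median 0.19). The 12 other tested genes with the element had a median of 0.08, and 1 of them, Alg12, a mannosyltransferase of N-glycan assembly, rose (0.77). Of all 13247 tested genes with a promoter entry, 1017 were higher and 880 lower in knockouts (median 0.01). In controls the list members' medians were 0.25 with the element and 0.22 without it. Whether the element bears on these changes was not tested.

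Heat shock and cold-inducible genes follow body temperature, which climbs when mice become active. In knockouts 7 of 17 rose and 1 fell (median 0.27; 47.1% called, against 12.6% of all genes). In controls 10 rose and 1 fell (median 0.56), where 3.63% of all genes were called. Hspb1, a small heat shock protein, went from 3.64, 4.69 and 4.94 to 5.37, 5.67 and 6.31 (1.20 ± 0.18), and rose by 1.64 in controls. Hsp90aa1, the inducible cytosolic HSP90, went from 4.75, 5.03 and 5.33 to 5.48, 5.82 and 6.26, and rose by 0.85 in both genotypes (95% interval of the difference -0.37 to 0.36). The groups of both genes did not overlap. Stip1, an HSP70 and HSP90 cochaperone, rose by 0.44, but its other probe read 0.08 and the call was lost with its probes averaged. Hsph1 rose by 0.53, Hspa4l by 0.67, Hsp90ab1 by 0.27 and Hspa1a, which shares near-identical sequence with Hspa1b, by 1.29. Without ZT12 replicate 6, 4 of the list were called higher, as in a fit of only the 2 groups compared.

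Cold-inducible RNA-binding proteins fall as temperature rises. Rbm3 fell by 0.48 ± 0.08 in knockouts, without overlap, against -0.18 in controls. Cirbp changed mainly in controls. It fell by 1.28 on the log2 scale in controls, from a median of 2.10 to 0.77, while knockouts, at medians of 1.98 and 1.56, did not pass the test (-0.37 ± 0.14, adjusted p = 0.0739). The difference between genotypes for Cirbp was 0.91 ± 0.19 (adjusted p = 0.0089).

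Proteasome subunits showed small shifts in one direction. Of 33 tested, 10 rose and none fell in knockouts (median 0.12), which is 30.3%, against 7.06% of all genes higher. In controls none rose and 3 fell (median -0.10; 3.63% of all genes called). For 7 the difference was called, each with the more positive change in knockouts, where 1.97% of all genes were. Of these, Psmb5 lost the call in 26 of 39 repeats under other settings and without single arrays, and Psmd14 in 12 of 39. Psmd14, the deubiquitinase of the lid, went from 2.21, 2.48 and 2.60 to 2.69, 2.87 and 3.07 (0.41 ± 0.08; adjusted p = 0.00058) and differed by -0.03 in controls. Psma4, a subunit of the core's outer ring, rose by 0.16 ± 0.05 in knockouts and fell by 0.21 in controls (difference 0.37 ± 0.07, adjusted p = 0.00497). Psmb5, a catalytic subunit, rose by 0.21 and Psmd1, a scaffold of the base, by 0.30. All 10 rises were at most 1.33-fold, and their count depended on the fit: 1 was called when only the 2 groups compared were fitted, and 6, 4 and 5 without ZT12 replicate 1, ZT12 replicate 6 or ZT16 replicate 5.

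**Figure D3:**
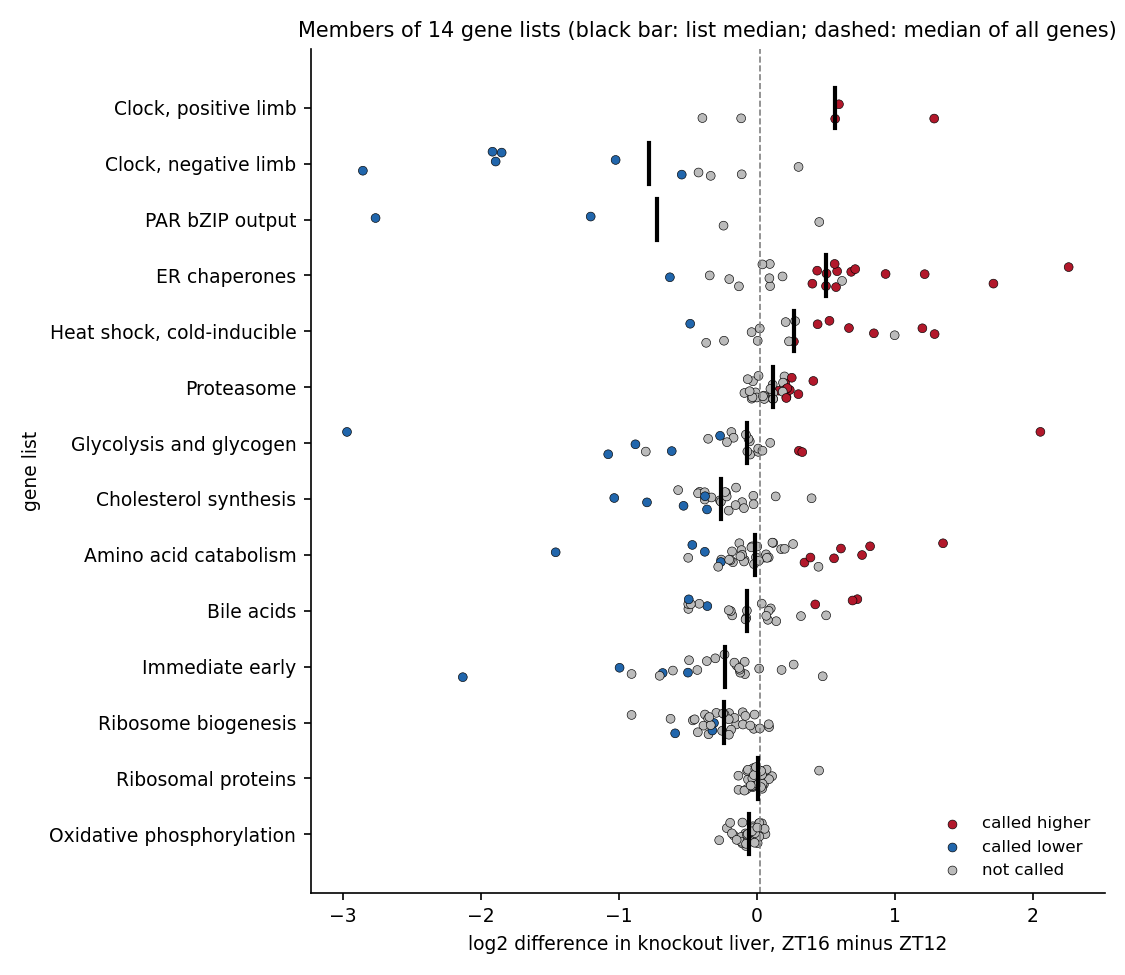
Log2 difference ZT16 minus ZT12 in knockout liver (x axis) for the tested members of 14 gene lists, one row per list; each point is a gene, red if called higher, blue if called lower and grey if not called, with the list median as a black bar and the median of all genes as a dashed line. ER chaperones lie mostly above 0 (median 0.50), the clock's negative limb mostly below (median -0.78), and ribosomal proteins at 0.01.

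Genes of glycogen metabolism changed in both directions. In the list of glucose phosphorylation, glycolysis and glycogen genes, 3 of 22 rose and 5 fell (median -0.07; 36.4% called, against 12.6% of all genes). In controls 1 rose and 4 fell, where 3.63% of all genes were called. The targeting subunits of protein phosphatase 1, which bring it to glycogen, split: Ppp1r3c rose and Ppp1r3g fell, as given above, and Ppp1r3b, the main hepatic subunit, went from 7.35, 7.66 and 7.93 to 6.51, 6.79 and 7.17 (-0.88 ± 0.12). The only Ppp1r3b probe holds a TG run of 13 bases, so this value belongs to the block of probes described above. Ppp1r3c went from 0.11, 0.40 and 1.47 to 1.91, 2.69 and 3.18 without overlap, and the controls rose by 1.16 to the same median of 2.69. Gys2, liver glycogen synthase, went from 6.52, 6.94 and 7.28 to 5.71, 5.81 and 6.00. The change was -1.08 ± 0.13 (2.11-fold; adjusted p = 1.66e-06), against -0.33 in controls (difference -0.74 ± 0.18, adjusted p = 0.0273).

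Gbe1, the branching enzyme, fell by 0.62 ± 0.15 (not called with its probes averaged), and Phka2, a regulatory subunit of phosphorylase kinase, fell by 0.27. Ldha, lactate dehydrogenase, rose by 0.33 and Gckr, the glucokinase regulatory protein, by 0.30. Of these 4, only Ldha had no overlap between times.

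Among FoxO targets and genes of gluconeogenesis, which insulin holds down in normal liver, 1 of 19 rose and 3 fell (median -0.25; 21.1% called, against 12.6% of all genes). The list's median was -0.28, -0.30 and 0.20 in wash batches 1, 2 and 3. Without ZT12 replicate 6, 5 fell. None was called in controls, where 3.63% of all genes were. Foxo3, a FoxO factor itself, went from 0.14, 0.44 and 0.74 to -0.30, -0.25 and 0.01 without overlap. It fell by 0.65 ± 0.10, against -0.12 in controls (difference -0.53 ± 0.14, adjusted p = 0.0379). That difference lost its call in 15 of 39 repeats under other settings and without single arrays. Ppargc1a, a coactivator of gluconeogenesis, fell by 0.60 (adjusted p = 0.0355), Sesn1, a stress-induced regulator of mTORC1, fell by 0.32, and Cited2, a transcriptional coregulator, rose by 0.76. Pck1, the enzyme of phosphoenolpyruvate synthesis, had no overlap between 8.62, 8.78 and 8.93 and 8.06, 8.30 and 8.41, yet did not pass the adjusted threshold (-0.48 ± 0.17, adjusted p = 0.0666). G6pc, glucose 6-phosphatase, overlapped (-0.42, adjusted p = 0.495). Both stood higher in knockouts than in controls, whose medians were 7.27 and 7.12 for Pck1 and 5.0 and 5.35 for G6pc.

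In the insulin and IGF signalling list, 1 of 21 rose and 1 fell (median 0.06), 9.52% against the 12.6% of all genes. Irs1, an insulin receptor substrate, went from 1.22, 1.35 and 1.70 to 1.71, 2.23 and 2.39 (0.75 ± 0.15; adjusted p = 0.000945), and rose by 0.58 in controls. Akt1 fell by 0.24. Igf1, the hepatic growth factor, did not pass the test in either genotype (-0.16 and 0.25), and its difference between genotypes was called (-0.40 ± 0.11, adjusted p = 0.0372).

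Of 23 genes of fatty acid and triglyceride synthesis, 1 rose and 2 fell (median -0.08), a share of 13% that lies near the 12.6% of all genes. The falls were the lipins, phosphatidate phosphatases. Lpin1 went from 2.93, 3.85 and 5.34 to 0.19, 2.25 and 3.35, a change of -1.96 ± 0.39 with overlap and with -2.52, -2.22 and -0.35 in the wash batches. Lpin2 went from 4.37, 4.72 and 5.06 to 3.13, 3.76 and 3.98 without overlap (-1.02 ± 0.19). Agpat2, an acyltransferase of the same pathway, rose by 0.53 ± 0.09. Among sterol genes 5 of 25 fell and none rose (median -0.26), 20% against 5.52% of all genes lower. In controls 1 rose, where 3.63% of all genes were called. Fdft1, squalene synthase, went from 4.22, 4.28 and 4.38 to 3.62, 3.69 and 4.20 without overlap (-0.53 ± 0.15; adjusted p = 0.0128). The sterol carrier Stard4 fell by 0.38. No difference between genotypes was called in either list, against 1.97% of all genes.

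Of 27 genes of fatty acid oxidation and ketogenesis, 1 rose and 2 fell, 11.1% against the 12.6% of all genes. Cpt1a, the carnitine transferase that admits fatty acids to mitochondria, went from 5.22, 5.52 and 5.86 to 4.77, 4.88 and 5.12 (-0.62 ± 0.13), without overlap. Cpt2, its partner in the inner membrane, rose by 0.42, also without overlap, a call lost when probes were averaged. Acaa1a, a peroxisomal thiolase, fell by 0.37. Of 11 acyl-CoA thioesterases, Acot6 rose (1.05, adjusted p = 0.0463) and Acot7 fell (-0.31, adjusted p = 0.0429).

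Glucocorticoid-responsive genes had a median of -0.30 in knockouts and 0.29 in controls. Of 20 tested, 1 rose and 4 fell in knockouts (25% called, against 12.6% of all genes). In controls 2 rose and none fell (3.63% of all genes), and the difference was called for 3 (1.97% of all genes). The 4 falls became 2 without each of ZT12 replicates 1 and 4 and ZT16 replicates 1 and 5, and 1 when only the 2 groups compared were fitted. Fkbp5, a glucocorticoid receptor cochaperone, went from 2.70, 3.45 and 4.11 to 1.48, 2.5 and 2.86 in knockouts and from 2.98, 3.63 and 4.49 to 4.56, 4.86 and 5.22 in controls. It fell by 0.92 ± 0.25 in knockouts and rose by 1.24 in controls (difference -2.16 ± 0.35, adjusted p = 0.00155). The 2 genotypes were thus close at ZT12 and apart at ZT16, with no overlap there.

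Klf9, a glucocorticoid-induced transcription factor, fell by 1.03 ± 0.18 (adjusted p = 0.000144), Errfi1, a feedback inhibitor of EGF receptors, fell by 0.84, and Mt2, a metallothionein, fell by 1.46. Gadd45a, a stress-induced growth arrest gene, went from -2.53, -1.89 and -1.74 to -1.65, -1.08 and -0.01, a rise of 1.02 ± 0.25 without overlap, while controls had medians of 0.20 and -0.35 (difference 1.58 ± 0.35, adjusted p = 0.0134). Mt1, whose probe may share sequence with Mt2, passed in neither genotype (-0.81 and 1.11) but its difference was called (-1.93 ± 0.47, adjusted p = 0.0263). The list's median within the wash batches was -0.50, -0.54 and 0.25.

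Of 23 cAMP-responsive and immediate early genes, 4 fell and none rose (median -0.23), 17.4% against 5.52% of all genes lower. Of the 4, 1 rests on a TG-run probe. The count was 1 in a fit of only the 2 groups compared, and none was called in controls, against 3.63% of all genes. Egr1, an early growth response factor, went from 0.82, 1.97 and 4.02 to -0.89, -0.16 and 1.57 (-2.13 ± 0.49; 4.38-fold; adjusted p = 0.00329), with overlap. Sik1, a salt-inducible kinase that feeds back on cAMP signalling, fell by 0.99 ± 0.22 and Ier2 fell by 0.50. Junb, an AP-1 subunit, fell by 0.68 on a probe with a TG run of 13 bases, while another Junb probe gave -0.30 and did not pass the test.

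Bile acid genes moved in part. Of 23, 3 rose and 2 fell (21.7% called, against 12.6% of all genes), and 2 differences were called (1.97% of all genes). Hsd3b7, an early enzyme of bile acid synthesis, went from 6.05, 6.14 and 6.44 to 6.83, 6.91 and 7.0 (0.73 ± 0.10; adjusted p = 5.43e-06) and differed by 0.05 in controls (difference 0.68 ± 0.14, adjusted p = 0.00718). Abcb11, the bile salt export pump, rose by 0.69 ± 0.12 and Baat, which conjugates bile acids, by 0.42. Klb, the FGF15 coreceptor β-klotho, fell by 0.49 ± 0.12 (difference between genotypes -0.70, adjusted p = 0.0318; neither called with probes averaged), and the canalicular transporter Abcc2 fell by 0.36. Cyp7a1, the rate-limiting enzyme of the pathway, overlapped widely between times (0.32 ± 0.35, adjusted p = 0.684).

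Of 40 genes of amino acid catabolism and the urea cycle, 7 rose and 4 fell (median -0.01; 27.5% called, against 12.6% of all genes). The largest rise was Bhmt, which returns a methyl group to homocysteine. It went from 5.33, 6.5 and 7.27 to 7.26, 8.02 and 8.51 (1.35 ± 0.22), nearly without overlap. Cbs, which sends homocysteine to cysteine, went from 6.18, 6.63 and 6.98 to 7.25, 7.42 and 7.51 (0.76 ± 0.11; adjusted p = 1.91e-05), while controls differed by 0.11 (difference 0.65 ± 0.16, adjusted p = 0.0235). Gldc, of the glycine cleavage system, rose by 0.82 ± 0.15 without overlap and by 0.56 in controls. The others that rose were Sdsl (0.61), Hal (0.56), Slc25a15 (0.39) and Nags (0.34). Besides Slc38a2, the falls were Bckdhb (-0.47) and Bckdha (-0.26), subunits of branched-chain ketoacid dehydrogenase, and Gpt2 (-0.38).

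Atf5, a leucine zipper factor of the ATF4 list, went from 6.23, 6.5 and 6.79 to 7.30, 7.48 and 8.13, a rise of 1.06 ± 0.15 without overlap, against 0.02 in controls (difference 1.04 ± 0.21, adjusted p = 0.00718). Chac1, of the same list, fell, and Gars, the glycyl-tRNA synthetase, rose by 0.18. In all 2 of 28 rose and 1 fell there, 10.7% against the 12.6% of all genes.

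Nampt, the rate-limiting enzyme of NAD salvage and a direct target of the clock, went from 2.5, 2.77 and 3.02 to 1.00, 1.48 and 1.95 without overlap. The change was -1.30 ± 0.18 (2.46-fold; adjusted p = 8.14e-06), against -0.27 in controls (difference -1.03 ± 0.25, adjusted p = 0.0243). Sirt1, an NAD-dependent deacetylase, fell by 0.47. Naprt, which uses nicotinic acid, rose by 0.29, and Aox1, aldehyde oxidase, by 0.57 ± 0.11, where controls fell by 0.40 (difference 0.97 ± 0.15, adjusted p = 0.00131). Thus 2 of 18 NAD genes rose and 2 fell, 22.2% against 12.6% of all genes.

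Of 24 genes of xenobiotic metabolism 4 fell and none rose, 16.7% against 5.52% of all genes lower. Cyp2a5, coumarin 7-hydroxylase, went from 7.79, 8.17 and 8.79 to 6.12, 6.98 and 7.81 (-1.26 ± 0.19), against -0.19 in controls (difference -1.07 ± 0.26, adjusted p = 0.029). Cyp2a4, a near-identical paralogue whose signal may be shared, fell by 1.18. Por, the electron donor of the P450 enzymes, fell by 0.58 and Nr1i2, the xenobiotic receptor PXR, fell by 0.65. All 4 overlapped between times.

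Growth hormone signalling, which sets much of the liver's sex-biased expression, had 2 falls among 21 genes, 9.52% against the 12.6% of all genes. Socs2, its feedback inhibitor, went from 3.34, 4.00 and 4.83 to 1.20, 2.01 and 3.38 (-1.81 ± 0.47; adjusted p = 0.00933; -1.10 with its probes averaged). Cux2, a repressor typical of female liver, went from -0.18, 0.44 and 1.09 to -0.99, -0.71 and 0.10 (-1.07 ± 0.26), and was near -4 in control livers, with medians of -4.48 and -4.13 and 5 of 6 arrays above background at each time. The difference for Cux2 was -1.53 ± 0.36 (adjusted p = 0.0217), a size that rests in part on control arrays not above background. Its call was lost with the authors' deposited values and with its probes averaged.

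**Figure D4:**
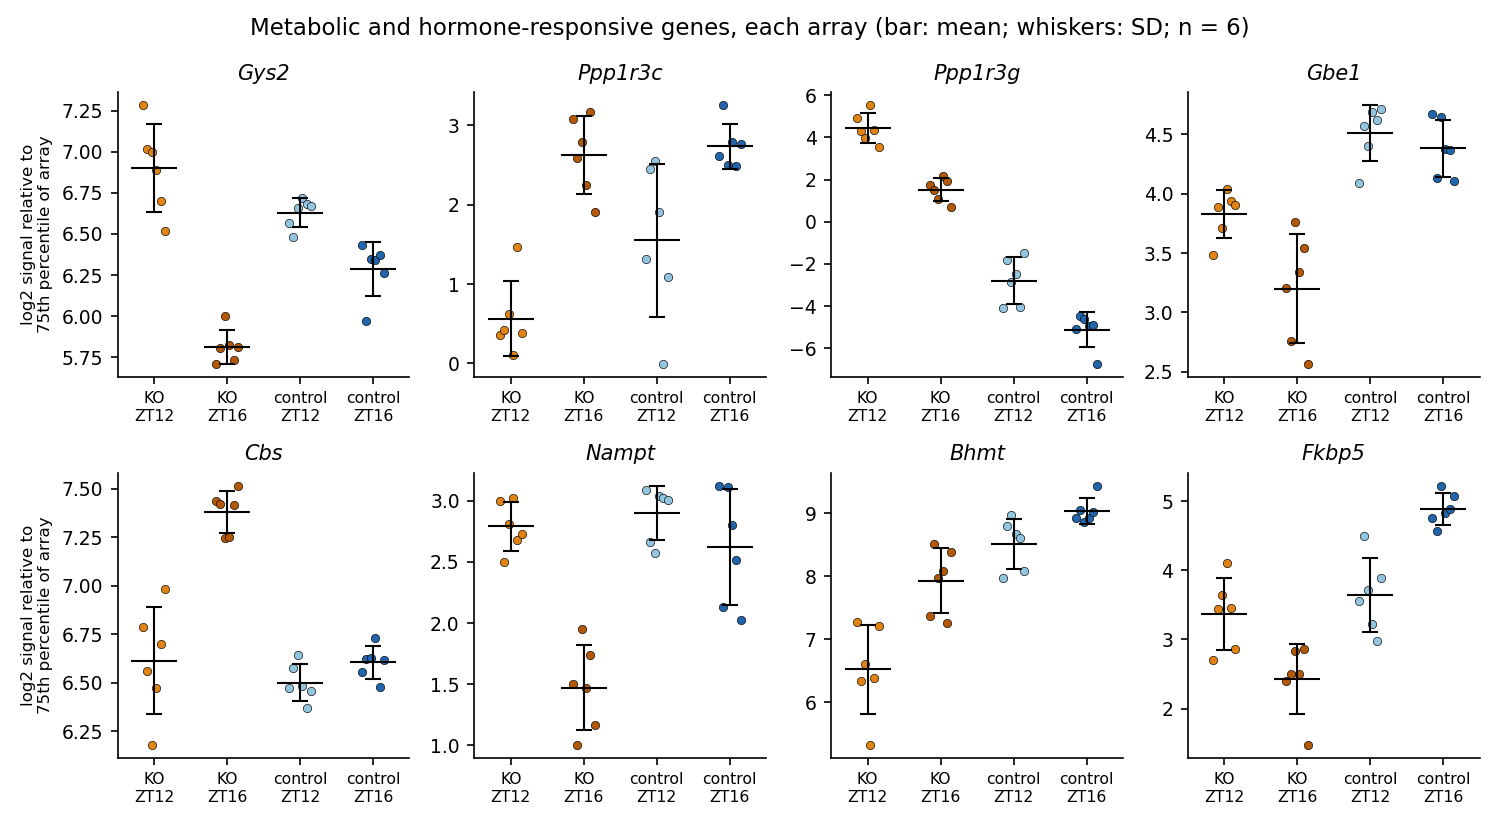
Levels of Gys2, Ppp1r3c, Ppp1r3g, Gbe1, Cbs, Nampt, Bhmt and Fkbp5 in each knockout and control liver at ZT12 and ZT16, as log2 signal relative to the array's 75th percentile; points are livers, bars group means and whiskers SD (n = 6). Fkbp5 falls in knockouts and rises in controls, and Ppp1r3g is higher in every knockout liver than in any control liver.

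Several lists had few calls. None of 37 cytosolic ribosomal proteins and none of 34 oxidative phosphorylation subunits was called in either genotype, against a background of 12.6% and 3.63%, with knockout medians of 0.01 and -0.06. Ribosome biogenesis had a median of -0.24 with 3 of 34 lower (Ncl, Rrn3 and Pes1), and 6, 10 and 6 lower without ZT12 replicate 2, ZT12 replicate 6 or ZT16 replicate 5. Of its 34 members, 31 had a negative value, called or not. Its median was -0.31, -0.31 and 0.13 in wash batches 1, 2 and 3. Without ZT16 replicate 6, 5 oxidative phosphorylation subunits were called lower. One gene of 23 acute phase proteins (Fgb, 0.21), 1 of 21 interferon-stimulated genes (Stat2, 0.40) and 1 of 20 NRF2 and pentose phosphate genes (Srxn1, 0.57) rose. The interferon list's median was -1.30 in wash batch 3, against 0.13 and 0.07 in the others. The autophagy and lysosome list lay above the background, with 2 of 21 genes higher and 2 lower (19% called, against 12.6%). Of 23 secreted hepatic factors 2 fell (Igfbp4, -0.37, and Lect2, -0.56), and of 19 cell cycle genes only Wee1 fell. The cell cycle list's median was -0.03, -0.06 and -1.06 in wash batches 1, 2 and 3. That of ribosomal proteins was -0.14, -0.10 and 0.46. Wash batch 3 held 1 knockout array at ZT12. Among cell type markers, 1 of 13 hepatocyte, 1 of 9 pericentral and 2 of 9 periportal genes were called, against 12.6% of all genes. So were 1 of 11 stellate, 1 of 7 bile duct and 1 of 7 neutrophil genes, and none in the other marker lists. The bile duct call was Sox9, which rose by 0.99, while its other probe read 0.35.

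The change between times differed most between genotypes, by the rule of the 6 most positive and 6 most negative called genes, in Gm32894 (2.24), 9130409I23Rik (1.97), Gm15998 (1.86), H1f2 (1.78), Gnat1 (1.65) and Gadd45a (1.58) on one side. On the other stood Pip5k1a and Fkbp5 (both -2.16), Mt1 (-1.93), Per1 (-1.83), Serpine2 (-1.57) and Gm16551 (-1.52). H1f2, a linker histone, went from 1.75, 2.52 and 3.77 to 3.18, 4.47 and 5.14 in knockouts, with some overlap, and had medians of 2.86 and 2.65 in controls. Pip5k1a, a phosphoinositide kinase, fell by 1.36 ± 0.36 in knockouts and differed by 0.80 in controls; with its probes averaged the knockout change was -0.57.

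For other genes the change lay in the controls. Serpine2, a protease inhibitor, rose by 1.77 in controls (adjusted p = 4.78e-05), from 0.39, 0.61 and 1.84 to 2.36, 2.70 and 3.15, while knockouts gave 0.20 ± 0.24 (adjusted p = 0.714). Gnat1 fell by 1.40 on the log2 scale and Gm15998 by 1.25 in controls, with 0.25 and 0.61 in knockouts, neither called. These differences were called with adjusted p = 0.00959, 0.0306 and 0.0129. With normexp background the Gnat1 difference was 0.89 and was not called.

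**Figure D5:**
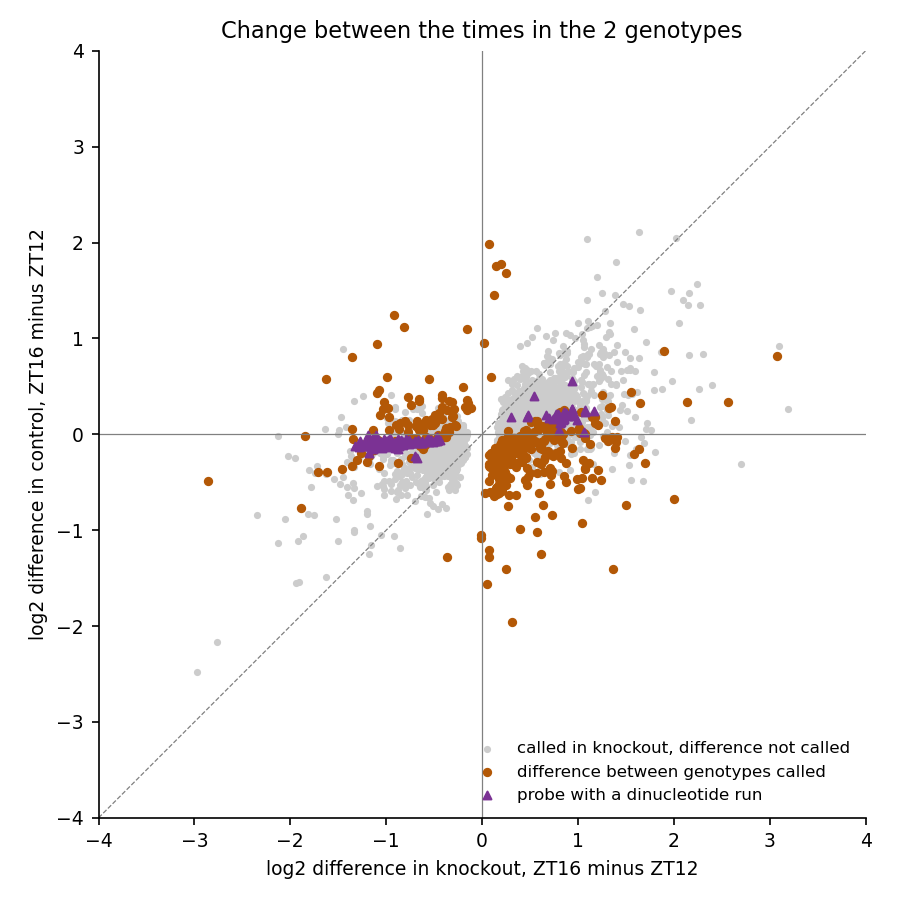
Log2 difference ZT16 minus ZT12 in knockout liver (x axis) against control liver (y axis) for the 2969 genes called in knockouts or for the difference between genotypes; each point is a gene, brown where the difference was called, grey where it was not, and a purple triangle where the probe holds a TG or CA run. On the dashed diagonal both changes are equal; the TG-run probes form a band below 0 on the x axis and near 0 on the y axis.

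Across all 22883 genes the 2 changes had a Pearson r of 0.31, a description over genes that are not independent. The comparison of knockout and control changes rests on 6 livers per group, and a call in one genotype alone does not show a difference.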

How the data were processed

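RNA from mouse liver was measured on 36 Agilent 60-mer arrays (6 groups of 6). Per the labels' protocols, 200 ng of RNA was labelled with Cy3. Per the file headers, the deposited spot intensity is Feature Extraction's background-subtracted, detrended processed signal (version 10.10.1.1, per the submitters' processing notes), and deposited flags of another kind mark spots well above background. The authors' deposited table holds quantile-normalized log2 values, which served as an alternative. Here log2 intensity was scaled to the 75th percentile of its array, control spots left out. Probes above background on at least 6 of 36 arrays were kept (398 were on exactly 6, 512 on exactly 5 and left out), and genes missing a value on any array were dropped (93 probes). The brightest probe stood for a gene; 28476 kept probes were named through RefSeq and the others by the file. The 22883 genes were fitted with limma 3.58.1 in R 4.3.3 (6 groups, wash batch as covariate, eBayes, Benjamini-Hochberg, threshold 0.05). All groups share one estimate of the spread. The fit was tested on simulated data. Precision is limited by the 6 arrays per group, and the labels do not say that each came from a separate mouse. Members of gene lists and the comparison itself were chosen with earlier results of these data known. Named genes were the 12 largest rises and 12 largest falls (called, with a symbol, above background on all 12 arrays, no overlap), called genes above background at one time only, the 6 most positive and 6 most negative genotype differences above background on all 24 arrays, listed genes and Insr. The histone genes and the probes with repeats were chosen after their values were seen. Same-numbered arrays were not paired, since the correlations of their deviations ran from -0.278 to 0.201. Single values of a few listed genes are not reported here, though the genes stayed in the fit and the list counts.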

Additional observations from a re-analysis of the deposited data

Results flagged for a closer look

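In 16 of 260 groups of 6 arrays tested (6.15%), 1 array lay far from the others, where chance marks about 1 in 20. In knockouts at ZT16, replicate 6 was outlying in 3930402G23Rik (2.0, nearest 1.34), Fkbp5 (1.48, nearest 2.41), Cited2 (1.37, nearest 1.98), Ppargc1a (2.89, nearest 2.55), Cux2 (0.1, nearest -0.59) and Psma4 (5.76, nearest 5.90). At the same time replicate 5 was outlying in Insr (-3.75, nearest -3.24) and Cry2 (3.12, nearest 3.02), and replicate 4 in D930048N14Rik (-0.48, nearest 0.15). In knockouts at ZT12, replicate 1 was outlying in Bhlhe41 (-6.86, nearest -7.18), Hspb1 (3.64, nearest 4.52) and H3c15 (0.34, nearest -0.35), replicate 4 in Caln1 (1.37, nearest 0.33) and replicate 6 in Pdia4 (2.69, nearest 2.21). The median of the TG-run probes was 7.0 in ZT12 replicate 3, and ZT12 replicate 6 stood at 37.28 on the third principal component.

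For 40 named genes the change from ZT12 to ZT16 differed between genotypes by the fitted interaction (limma, adjusted p under 0.05). It was more positive in knockouts for Gm32894 (2.24), 9130409I23Rik (1.97), Gm15998 (1.86), H1f2 (1.78), Gnat1 (1.65), Gadd45a (1.58), 3930402G23Rik (1.32), Leap2 (1.11), Atf5 (1.04), Tjp3 (1.02), Aox1 (0.97), Cirbp (0.91), Hsd3b7 (0.68), Cbs (0.65) and the proteasome genes Psmd1 (0.45), Psmd14 (0.44), Psma4 (0.37) and Psmb5 (0.27). It was more negative for the clock genes Ciart (fitted -2.37, not a sized difference since no knockout array at ZT16 was above background, and not called with normexp background or the authors' deposited values), Per1 (-1.83), Per2 (-1.36), Per3 (-1.12), Tef (-0.91) and Cry2 (-0.64), and for Pip5k1a (-2.16), Fkbp5 (-2.16), Mt1 (-1.93), Serpine2 (-1.57), Cux2 (-1.53), Gm16551 (-1.52), Coq10b (-1.32), Wee1 (-1.23), Slc38a2 (-1.09), Cyp2a5 (-1.07), Nampt (-1.03), Ppp1r3b (-0.83, a TG-run probe), Gys2 (-0.74), Klb (-0.7), Foxo3 (-0.53) and Igf1 (-0.4).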

How the results depend on the processing

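The alternatives covered the called changes of the genes named by rule and part of the other called changes named above. Phka2, Akt1, Acot6, Sesn1 and Stard4 were among those not covered. Under the alternatives run, no covered change in knockouts and none of the 3 counts turned its direction. The knockout count of 2879 stayed within 1.5 times under normexp background (2890), quantile normalization (2956), the authors' deposited values (3055), slide as a fixed effect (2315) and the other settings run, and fell to 1676 when only the groups compared were fitted, with fewer arrays to estimate the spread. The control count of 830 fell to 491 with no filter on dim probes, to 338 with slide as a fixed effect and to 327 with only the groups compared. The count for the difference, 450, was 256 with no filter, 272 with only the groups compared, 1079 with array weights and 291 without probes holding a TG or CA run, an alternative chosen after seeing the data. The cause of these changes in count was not tested. Leaving out 1 array gave 2212 to 2911 genes in knockouts, 434 to 883 in controls and 247 to 600 for the difference; without knockout ZT8 replicate 3, which enters only the spread, the counts were 3247, 1049 and 669. The difference count moved by over 1.5 times without knockout ZT12 replicate 4 (288), ZT16 replicates 1 (287) or 2 (247), or control ZT12 replicate 3 (285), and the control count without control ZT12 replicates 1 (543), 4 (518) or 6 (461) or ZT16 replicates 2 (536), 3 (514) or 6 (434). With the replicate number as a block, 2756, 831 and 385 genes were called, of which 2623, 746 and 367 were called without the block. Of the named knockout calls covered, 45 of 1380 repeats under other settings and 46 of 1287 without 1 array lost the threshold. Most often lost were Herpud1 (13 of 27), Hsph1 (10) and Ppargc1a, Mt2 and Errfi1 (9 each). Of named differences, most often lost were Psmb5 (26 of 39), Gm16551 (22), Igf1 and Tjp3 (19 each) and Slc38a2 (17). Signal near background limits Ciart, Bhlhe41, H1f3 and H4c17.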

Other observations

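Genes of the H1, H2A, H2B, H3 and H4 histones were looked at after their values were seen. Most of them belong to the gene clusters whose transcripts lack a poly(A) tail and accompany DNA synthesis. Of 45 tested, 21 were higher at ZT16 in knockout liver and none lower (median 0.48), beside 12.6% of all genes called in either direction. In controls 4 were higher (median 0.10), where 3.63% of all genes were called. The difference between genotypes was called for 1, H1f2, against 1.97% of all genes. By family, 7 of 8 H4 genes, 6 of 9 H2B, 5 of 7 H3, 3 of 9 H1 and 0 of 12 H2A genes were higher. H4c9 went from -3.57, -3.00 and -2.35 (lowest, median, highest) to -2.60, -1.76 and -1.36, a rise of 1.09 ± 0.19 (limma, adjusted p = 0.000133), with overlap. H2bc4 went from 5.75, 5.86 and 5.95 to 6.24, 6.41 and 6.80 without overlap. H3c15 rose by 1.47 in knockouts and by 1.36 in controls. Several of these genes are near-identical copies whose probes may read each other, so the values of single genes are uncertain. Of 19 cell cycle genes tested, only Wee1 was called in knockouts, and it fell. The cell cycle list's median was -1.06 in wash batch 3, against -0.03 and -0.06 in batches 1 and 2.

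The run-length dependence of the TG probes was as follows. Genes whose probe held a TG run of 12 bases or more had a median of -0.913, those with 10 to 11 bases -0.556 (22 of 40 called lower) and those with 8 to 9 bases -0.092 (19 of 108), against 0.022 for the 21719 genes with at most 5 bases.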
